A study of Mus musculus with 2 samples.

Results

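The cell division cycle genes described here are 44 protein-coding genes, chosen by name for their textbook role: 10 that drive or control passage through G1 and into S phase, 14 of DNA replication and nucleotide supply, 16 of G2 and mitosis, and 4 that encode inhibitors of cyclin-dependent kinases (CDKs). All 44 were found once in the deposited gene tables, among 43346 rows with Ensembl gene identifiers. The mice were newborn (postnatal day 0), of strain B6NTac;B6NCrl/Lap, with both sexes mixed and no treatment or engineered allele named in the labels, and the whole midbrain was taken. There is 1 group of 2 libraries from independent isolates: replicate 1 pooled 15 animals and replicate 2 a number of animals that the labels do not give. RNA longer than 200 nucleotides was sequenced after removal of ribosomal RNA, with no selection for poly(A) tails, so incompletely spliced and noncoding transcripts were measured too. With a single group there is no contrast between conditions, and the values below describe levels, their order and their spread between the isolates.

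A cell commits to division in G1, when D-type cyclins with Cdk4 or Cdk6, and then E-type cyclins with Cdk2, phosphorylate the retinoblastoma protein and free E2F transcription factors. E2F then turns on the genes that license and copy DNA, and genes of mitosis follow later, when Cdk1 joins the A- and B-type cyclins. CDK inhibitors of the Cip/Kip family (Cdkn1a, Cdkn1b) and the Ink4 family (Cdkn2c, Cdkn2d) hold this engine back, and several of them stay on in neurons that have left the cycle. Around birth most neurons of the rodent midbrain are postmitotic, while glial precursors, vessel cells and blood cells still divide.

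Defining markers of the tissue's cell types were present. All 7 neuronal markers and all 8 progenitor and radial glia markers reached 1 TPM (transcript abundance per length, scaled to the same total in each library) in both libraries. Tubb3, the tubulin of young neurons, stood at 816 TPM in replicate 1 and 727 in replicate 2, while Sox2, a factor of neural progenitors, stood at 15.0 and 13.3. In a bulk sample, fewer dividing cells and less RNA per dividing cell cannot be told apart. Depth was 46685706 estimated counts in replicate 1 and 72779229 in replicate 2.

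Most of the cell cycle genes were measurable, at low levels. Of the 44, 36 (81.8%) reached 1 TPM in both libraries, against 53.8% of 21461 protein-coding genes. Genes of other classes share the TPM scale in these libraries. Rescaled to protein-coding genes alone, TPM values rise 4.74 times in replicate 1 and 5.48 times in replicate 2, and 43 of the 44 then reached 1. The exception was Cdc6. This rise holds for every protein-coding gene. The share of all of them that then reached 1 is not given here, so the count describes no trait of the members. Together the members made up 0.116% of protein-coding TPM in replicate 1 and 0.124% in replicate 2.

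The roles differed in level, with the inhibitors highest and the mitotic genes lowest. The median TPM was 2.66 in replicate 1 and 2.17 in replicate 2 for the G1 genes, 2.44 and 2.81 for the S phase genes, 1.67 and 1.49 for the mitotic genes and 9.79 and 10.7 for the inhibitors. Over all protein-coding genes the median was 1.91 and 1.60, and over the detected ones alone 7.94 and 6.56. The median of all 44 members, detected or not, was 2.29 and 2.54. In both libraries the inhibitor median was more than 2-fold above the mitotic median, by a log2 ratio of 2.55 in replicate 1 and 2.84 in replicate 2. Medians of the G1 and S phase genes exceeded the mitotic one by less than 2-fold, with log2 ratios of 0.67 and 0.54 for G1 and 0.55 and 0.91 for S phase. With members below 1 TPM in a library left out, these differences shrank to a mean log2 ratio of 0.18 for G1 and 0.17 for S phase.

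**Figure D1:**
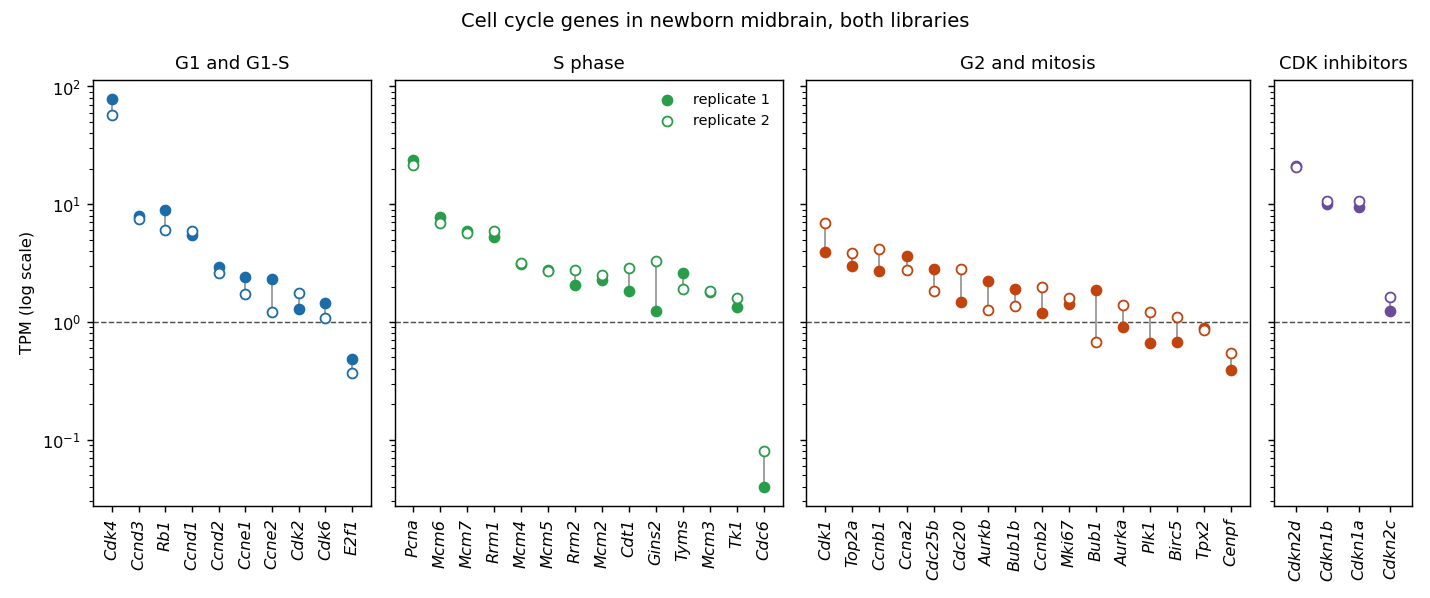
TPM (log scale) of each of the 44 genes in replicate 1 (filled) and replicate 2 (open), grouped by role and ordered by mean, with a dashed line at 1 TPM. Cdk4 leads the G1 genes, Pcna the S phase genes, Cdk1 the mitotic genes and Cdkn2d the inhibitors, and Cdc6 lies far below the rest.

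Among the G1 genes, Cdk4, the catalytic partner of the D-type cyclins (ENSMUSG00000006728.8, chromosome 10, 127063534 to 127067920, mm10), was the most abundant of all 44. It stood at 78.1 TPM in replicate 1 and 57.6 in replicate 2, above 98.2% of protein-coding genes by its mean. Its relative Cdk6 stood at 1.46 and 1.08, so Cdk4 exceeded it by a log2 ratio of 5.65 and 5.61. Nearly all RNA for the D-type cyclins' kinase thus came from Cdk4.

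The D-type cyclins, which carry growth signals to Cdk4 and Cdk6, were all detected. Ccnd3 stood at 7.94 TPM in replicate 1 and 7.54 in replicate 2, Ccnd1 at 5.53 and 5.87, and Ccnd2 at 2.91 and 2.58. Ccnd2 lay more than 2-fold below Ccnd3 in both libraries (log2 ratio -1.42 and -1.51). Against Ccnd1 it lay past 2-fold in replicate 2 alone (-0.90 and -1.16). Ccnd3 and Ccnd1 kept the same order in both libraries, and the gap between their means, 7.74 ± 0.28 and 5.70 ± 0.24 (SD, n = 2), was larger than either spread.

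Rb1, the retinoblastoma protein that D-type cyclin kinases inactivate, stood at 8.85 TPM in replicate 1 and 5.99 in replicate 2. Its target E2f1, an activator of S phase genes, was the lowest G1 gene at 0.48 and 0.37, on 91 and 130 counts. The E-type cyclins and Cdk2, which act just before S phase, lay close together. Ccne1 stood at 2.40 and 1.74, Ccne2 at 2.30 and 1.21, and Cdk2 at 1.30 and 1.76. Ccne1 and Ccne2 differed by less than 2-fold in both libraries, and the order of Cdk2 and the E-type cyclins was not the same in the 2 libraries.

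In the S phase group, Pcna, the sliding clamp of DNA polymerases that also serves DNA repair, stood well above the others. It reached 23.7 TPM in replicate 1 and 21.7 in replicate 2 (ENSMUSG00000027342.10, chromosome 2, 132249162 to 132253314). Against the proliferation marker Mki67, at 1.42 and 1.59, its log2 ratio was 3.97 and 3.69. The processed copy Pcna-ps2 was given 12.5 and 32.1 of the estimated counts, against 2201 and 3730 for Pcna.

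The 6 subunits of the Mcm2 to Mcm7 ring, the helicase that unwinds DNA at replication forks, were all detected but not at equal levels, although the ring holds them in equal numbers. Mcm6 stood at 7.78 TPM in replicate 1 and 6.90 in replicate 2, and Mcm7 at 5.93 and 5.67. The other 4 were lower, with Mcm4 at 3.10 and 3.19, Mcm5 at 2.78 and 2.69, Mcm2 at 2.29 and 2.49, and Mcm3 at 1.80 and 1.84. This order, Mcm6, Mcm7, Mcm4, Mcm5, Mcm2 and Mcm3, was the same in both libraries. Mcm7 exceeded Mcm5 by a log2 ratio of 1.07 and 1.05.

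Factors that load and start the helicase covered a wide range. Cdt1, which loads the ring on origins, stood at 1.84 TPM in replicate 1 and 2.85 in replicate 2. Its partner Cdc6 stood at 0.04 and 0.08, on 12 and 48 counts, the lowest of the 44 genes. Cdt1 exceeded Cdc6 by a log2 ratio of 3.79 and 4.03. Gins2, a subunit of the active helicase, stood at 1.24 and 3.32. Cdt1 lies wholly within Gm20388, a longer gene model on the same strand that held 2371 and 7106 counts. Gins2 also lies within Gm20388, on the opposite strand, and the strand setting of the counting is not given. Reads of these genes may therefore not be fully separable.

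Nucleotide supply genes covered a narrow range. Rrm1, the large subunit of ribonucleotide reductase, stood at 5.23 TPM in replicate 1 and 5.91 in replicate 2, and Rrm2, the small subunit made mainly in S phase, at 2.07 and 2.76. Rrm1 exceeded Rrm2 by a log2 ratio of 1.30 and 1.07. Tyms, thymidylate synthase, stood at 2.59 and 1.90, and Tk1, the S phase thymidine kinase, at 1.34 and 1.60. Tk1 lies within Gm20708 on the opposite strand, which held 59.2 counts in replicate 1 and 0 in replicate 2.

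On all transcripts the mitotic group was led by Cdk1, the kinase that drives entry into mitosis, at 3.96 TPM in replicate 1 and 6.94 in replicate 2. Its cyclins were Ccna2 at 3.61 and 2.75, Ccnb1 at 2.70 and 4.13, and Ccnb2 at 1.19 and 1.98. Ccna2 was above Ccnb1 in replicate 1 and below it in replicate 2. Ccnb1 exceeded Ccnb2 by a log2 ratio of 1.12 and 1.02, but by 0.39 and 0.27 on protein-coding transcripts alone.

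Chromosome and spindle genes followed. Top2a, the topoisomerase that untangles sister chromatids, stood at 2.97 TPM in replicate 1 and 3.87 in replicate 2. Cdc25b, the phosphatase that activates Cdk1, stood at 2.79 and 1.83, and Cdc20, the activator of the anaphase-promoting complex, at 1.47 and 2.82. The checkpoint kinase genes Bub1b and Bub1 stood at 1.89 and 1.36 and at 1.87 and 0.67.

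Among the mitotic kinases, Aurkb, of the chromosomal passenger complex, stood at 2.24 TPM in replicate 1 and 1.26 in replicate 2. Aurka, of the spindle poles, stood at 0.91 and 1.39, so the order of the Aurora kinases differed between the libraries. Plk1, a kinase needed throughout mitosis, stood at 0.66 and 1.21, and Birc5, the survivin subunit of the passenger complex, at 0.68 and 1.10. The spindle assembly factor Tpx2 stood at 0.89 and 0.85 and the kinetochore protein Cenpf at 0.39 and 0.54. Of the 16 mitotic genes, 10 (62.5%) reached 1 TPM in both libraries, against 53.8% of protein-coding genes. The other 6 were Plk1, Aurka, Bub1, Cenpf, Tpx2 and Birc5.

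All 4 inhibitors were detected, and 3 of them stood above every mitotic gene in both libraries. Cdkn2d, the Ink4 inhibitor p19 (ENSMUSG00000096472.1, chromosome 9, 21288410 to 21291407), stood at 20.9 TPM in replicate 1 and 20.8 in replicate 2. Cdkn1b, p27, stood at 10.1 and 10.6, and Cdkn1a, p21, a target of p53, at 9.53 and 10.7. Cdkn2c, the Ink4 inhibitor p18, was lower at 1.23 and 1.64, so Cdkn2d exceeded it by a log2 ratio of 3.98 and 3.58. Cdkn1b and Cdkn1a could not be told apart: their log2 ratio was 0.08 in replicate 1 and -0.02 in replicate 2. The means were 20.9 ± 0.127 for Cdkn2d, 10.3 ± 0.375 for Cdkn1b, 10.1 ± 0.849 for Cdkn1a and 1.44 ± 0.290 for Cdkn2c (SD, n = 2).

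Over 16 pairs of relatives and partners, 9 lay 2-fold or more apart, in the same direction, in replicate 1 and in replicate 2. These were Cdk4 over Cdk6, Pcna over Mki67, Cdt1 over Cdc6, Rrm1 over Rrm2, Mcm7 over Mcm5, Ccnb1 over Ccnb2 and Cdkn2d over Cdkn2c, with Ccnd3 above Ccnd2 and Cdk1 above Cdk2. The log2 ratio of Cdk2 over Cdk1 was -1.54 and -1.92 on all transcripts and -0.55 and -0.04 on protein-coding ones. With a pseudocount of 1 TPM, Rrm1 over Rrm2 (mean 0.95), Mcm7 over Mcm5 (0.86) and Ccnb1 over Ccnb2 (0.77) no longer passed 2-fold.

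The share of each level that lay on protein-coding transcripts varied widely between genes. For 26 of the 44 genes, at least 90% of TPM lay on annotated protein-coding transcripts in both libraries, among them all 4 inhibitors. For 4 genes, Cdk4, Tyms, Gins2 and Cdk1, under 50% did so in both. The rest of their TPM lay on transcripts annotated with a retained intron or as targets of nonsense-mediated decay. A short transcript has a small effective length (the number of places where a fragment can start), so few counts give a high TPM.

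For Cdk4 the coding share was 32.0% of TPM in replicate 1 and 40.0% in replicate 2, while coding transcripts held 55.7% and 64.0% of its counts. A retained-intron transcript of 468 bases carried 24.0 TPM on 346 counts in replicate 1 and 11.9 TPM on 316 counts in replicate 2. On coding transcripts alone Cdk4 stood at 25.01 and 23.06 TPM, still the highest of the 44 genes in both libraries. Its log2 ratio over Cdk6 was then 4.01 and 4.29. Cdk4 shares 641 bases with Tspan31 on the opposite strand.

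For Cdk1, 49.4% of TPM in replicate 1 and 26.0% in replicate 2 lay on coding transcripts, which stood at 1.95 and 1.81 TPM. On these Cdk1 no longer led the mitotic group: Ccna2 was higher in both libraries, at 2.88 and 2.07, and Top2a (2.71) and Ccnb1 (2.40) were higher in replicate 2. The higher total in replicate 2 lay on a retained-intron transcript of 475 bases, at 2.00 TPM on 29.9 counts and 5.14 TPM on 142 counts. For Gins2 the coding share was 20.97% and 4.22%. There a retained-intron transcript of 511 bases carried 0.94 TPM on 16.6 counts and 3.18 TPM on 104 counts. The coding share of Tyms was 20.8% and 26.3%. On coding transcripts alone Gins2 stood at 0.26 and 0.14 TPM and Tyms at 0.54 and 0.50.

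Bub1 showed how far the scales can part. Its counts were 84 in replicate 1 and 252 in replicate 2, higher in replicate 2 after scaling, while its TPM was 1.87 and 0.67, lower in replicate 2. In replicate 1, 15.8 counts placed on a 438-base transcript without a coding sequence made 1.30 TPM, and no count was placed there in replicate 2. On the coding transcript alone Bub1 stood at 0.25 and 0.55 TPM. Coding shares of Aurkb (59.4% and 91.3%), Ccne2 (58.3% and 100%) and Bub1b (68.6% and 100%) also differed between the libraries.

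**Figure D2:**
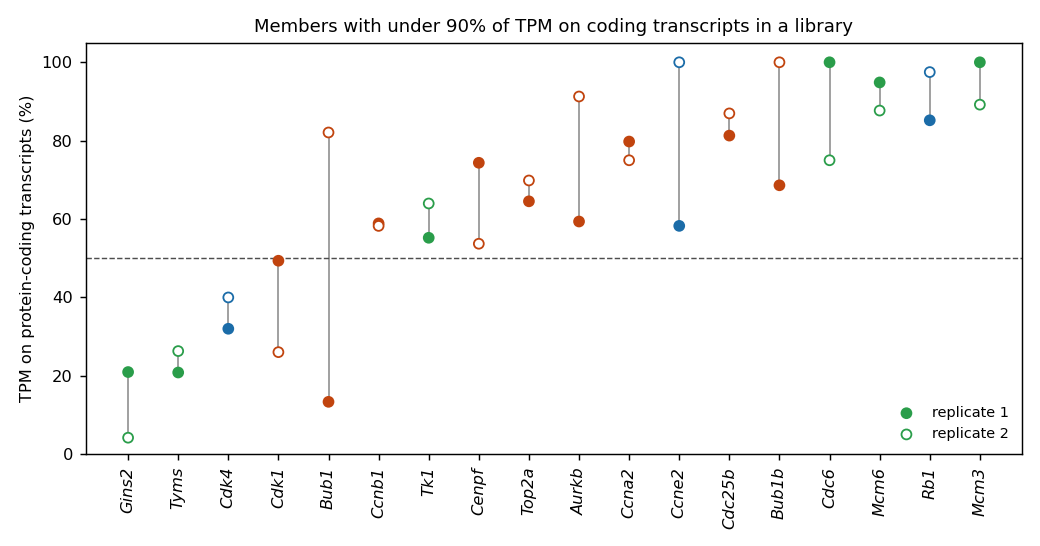
Percent of TPM on protein-coding transcripts in replicate 1 (filled) and replicate 2 (open) for the 18 genes under 90% in a library, with G1 genes in blue, S phase genes in green, mitotic genes in orange and a dashed line at 50%. Gins2, Tyms, Cdk4 and Cdk1 lie under 50% in both libraries, and Bub1 runs from 13.4% to 82.1%.

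Between the isolates, the mitotic genes had the highest median ratio of the 4 roles. Counts were scaled between the libraries by trimmed means (TMM), and the log2 ratio of replicate 2 over replicate 1 was taken for each of the 17572 genes that had 20 or more counts in sum, whose median was 0.01. All 44 members passed that minimum. The median log2 ratio was 0.64 for the mitotic genes, 0.38 for the inhibitors, 0.28 for the S phase genes and 0.10 for the G1 genes. Mitotic genes were higher in replicate 2 in 13 of 16 cases, S phase genes in 14 of 14, inhibitors in 4 of 4 and G1 genes in 7 of 10, against 51.0% of all genes.

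Past 2-fold, 5 of the 44 members were higher in replicate 2 and none was lower, against 7.72% of genes higher and 5.82% lower. Of the 5, 4 were mitotic. Birc5 had 51 counts in replicate 1 and 214 in replicate 2, a log2 ratio of 1.46 (95% exact interval 1.02 to 1.94, for counting error only). Cdc20 had 170 and 605 counts (1.23, 0.98 to 1.48), Plk1 97 and 330 (1.16, 0.83 to 1.51) and Ccnb2 115 and 355 (1.02, 0.72 to 1.34). Over all genes, such intervals lay above 0 for 36.0% and below 0 for 33.6%.

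The fifth was Cdc6 with 12 and 48 counts (1.36, 0.46 to 2.45). Replicate 2 was the higher library for each of these genes, and the interval of Cdc6 was the widest. Bub1 (0.98), Aurka (0.84), Ccnb1 (0.77) and Top2a (0.75) lay below the 2-fold line and above the upper quartile of all genes, 0.28. On counts of protein-coding transcripts alone Bub1 passed 2-fold (1.43) and Cdc6 did not (0.88), so that all 5 genes past it were mitotic. Cdc25b (-0.25), Ccna2 (-0.10) and Aurkb (-0.09) went the other way.

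Apart from Cdc6, the highest ratios in the remaining groups were those of Cdt1 (0.92), Cdkn2c (0.85), Tk1 (0.79), Cdk2 (0.72) and Rrm2 (0.65). Mki67 had a ratio of 0.45. Among genes with large counts, Cdk4 (0.02), Mcm6 (0.03) and Pcna (0.16) lay within the middle 50% of all genes, while Cdkn1b (0.34), Ccnd1 (0.39), Cdkn1a (0.42) and Rrm1 (0.46) lay above it.

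On deposited TPM the 17572 genes with 20 or more summed counts had a median log2 ratio of -0.26, and the 44 members 0.06. On TPM 10 of 16 mitotic genes, 9 of 14 S phase genes, 3 of 4 inhibitors and 2 of 10 G1 genes were higher in replicate 2. The one-sided counts of the S phase and G1 genes thus depended on the scale. The mitotic genes had a median TPM ratio of 0.38, and none of them passed 2-fold upward. The mitotic median exceeded that of all genes by 0.63 both on TMM-scaled counts and on TPM. With 2 libraries the ratios describe these isolates alone and carry no test.

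**Figure D3:**
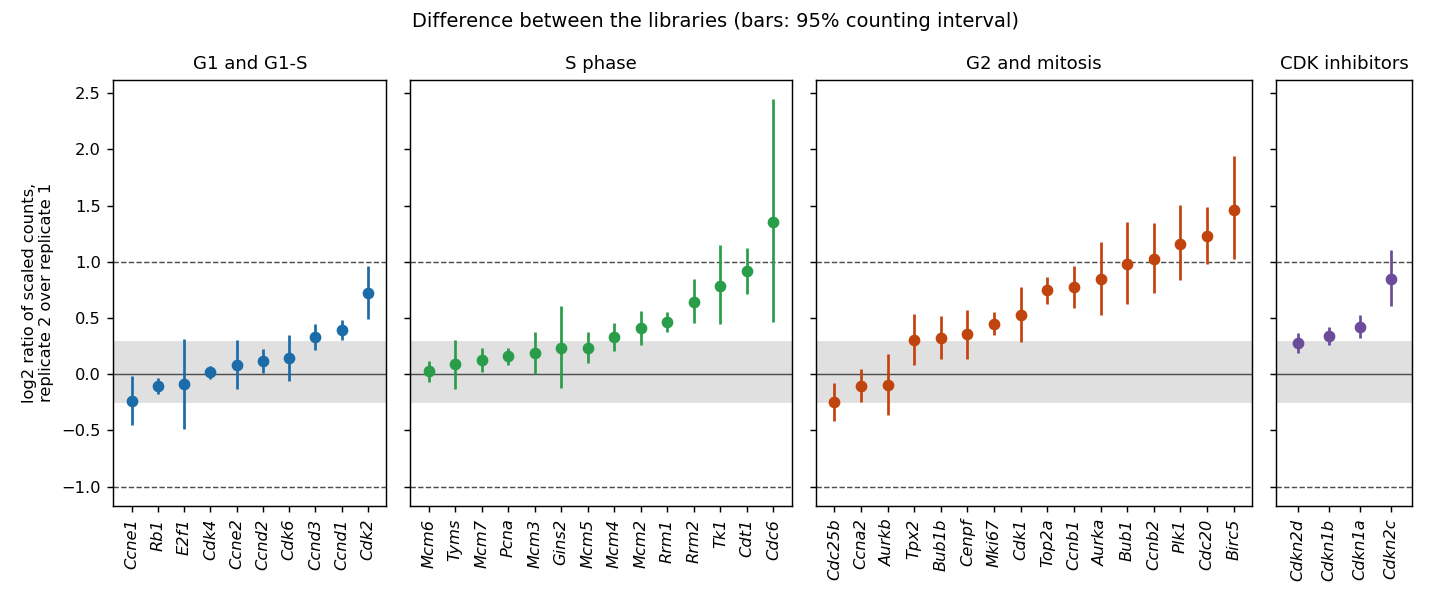
Log2 ratio of TMM-scaled counts, replicate 2 over replicate 1, for each gene by role, with bars for the 95% counting interval, dashed lines at 2-fold and a grey band for the middle 50% of all genes (-0.25 to 0.28). Birc5, Cdc20, Plk1, Ccnb2 and Cdc6 lie above the upper dashed line.

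Promoter letters differed between the roles most plainly for the CHR element, which most mitotic genes and few others held. Promoters are shown because CHR elements, bound by repressive and activating MuvB complexes, and CCAAT boxes, bound by NF-Y, are known from G2 and mitosis promoters, as E2F sites are from S phase promoters. RefSeq promoter windows (GRCm38.p6, 250 bases before to 50 after the start) were found for 35 of the 44 genes. The CHR search looked for TTTGAA or TTCGAA, the CCAAT search for CCAAT and the E2F search for TTCCCGC or TTGGCGC, each on both strands and with no overlap between the motifs' letters required or barred.

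A CHR match was present in 11 of 13 mitotic genes with a window, 2 of 12 S phase genes, 0 of 6 G1 genes and 0 of 4 inhibitors, against 21.7% of all genes in the table and 15.0% of detected protein-coding genes. CCAAT matches were more widely spread, in 12 of 13 mitotic genes, 8 of 12 S phase genes, 2 of 6 G1 genes and 3 of 4 inhibitors, against 41.1% and 42.8%. E2F matches were present in 7 of 12 S phase genes (Mcm3, Mcm5, Mcm6, Mcm7, Cdc6, Cdt1 and Rrm1) 3 of 13 mitotic genes, 1 of 6 G1 genes and 1 of 4 inhibitors, against 7.79% and 14.5%. The mitotic genes without a CHR match in the window were Ccnb1 and Birc5. Matches are a description of these windows and show no binding.

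The 4 mitotic genes past 2-fold between the isolates and Mcm6, the S phase gene with the highest level among those with an E2F match, are printed from 250 bases before to 30 after the start, 5′ to 3′ on the gene's strand, with matches to the 3 motifs in capitals. The windows are chr4:118437314-118437593 on the minus strand for Cdc20, chr9:70421525-70421804 on the minus strand for Ccnb2, chr7:122159185-122159464 on the plus strand for Plk1, chr11:117848987-117849266 on the plus strand for Birc5 and chr1:128359676-128359955 on the minus strand for Mcm6.
Cdc20: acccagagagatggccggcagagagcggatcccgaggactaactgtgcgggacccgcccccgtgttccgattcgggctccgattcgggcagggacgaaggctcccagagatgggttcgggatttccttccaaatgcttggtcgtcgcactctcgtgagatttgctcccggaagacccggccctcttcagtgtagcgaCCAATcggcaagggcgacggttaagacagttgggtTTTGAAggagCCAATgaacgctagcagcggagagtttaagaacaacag
Ccnb2: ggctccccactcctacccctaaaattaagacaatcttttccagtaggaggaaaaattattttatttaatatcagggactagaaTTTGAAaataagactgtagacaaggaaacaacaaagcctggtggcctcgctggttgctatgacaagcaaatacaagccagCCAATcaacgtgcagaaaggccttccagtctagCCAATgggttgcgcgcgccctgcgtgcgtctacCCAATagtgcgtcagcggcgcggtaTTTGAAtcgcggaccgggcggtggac
Plk1: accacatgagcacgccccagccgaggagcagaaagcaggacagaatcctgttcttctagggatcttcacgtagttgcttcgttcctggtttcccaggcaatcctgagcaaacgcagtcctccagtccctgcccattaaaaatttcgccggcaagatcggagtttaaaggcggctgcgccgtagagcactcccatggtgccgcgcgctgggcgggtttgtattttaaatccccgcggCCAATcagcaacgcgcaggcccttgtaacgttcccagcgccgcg
Birc5: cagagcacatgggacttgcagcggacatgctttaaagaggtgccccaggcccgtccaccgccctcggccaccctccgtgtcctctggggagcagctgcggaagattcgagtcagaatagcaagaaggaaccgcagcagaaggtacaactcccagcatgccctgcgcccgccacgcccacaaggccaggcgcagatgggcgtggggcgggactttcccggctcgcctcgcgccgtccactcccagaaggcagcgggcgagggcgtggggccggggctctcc
Mcm6: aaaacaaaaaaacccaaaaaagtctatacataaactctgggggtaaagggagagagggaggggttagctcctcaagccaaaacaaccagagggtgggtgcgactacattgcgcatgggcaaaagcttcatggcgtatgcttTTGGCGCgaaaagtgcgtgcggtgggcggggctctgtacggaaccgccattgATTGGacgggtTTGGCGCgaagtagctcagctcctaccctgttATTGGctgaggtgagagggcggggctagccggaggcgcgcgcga
In Cdc20 the CHR match begins at position -18, between CCAAT matches at -53 and -8, where -1 is the last base before the start. In Ccnb2 the 3 CCAAT matches at -87, -54 and -21 lie between CHR matches at -167 and 5. Plk1 has a CCAAT match at -14, and its CHR match lies at the end of the window, past the printed stretch. Birc5, whose ratio between the isolates was the highest of the 44, has no match in the stretch. A link between matches and these ratios was not tested. Mcm6 has E2F matches at -109 and -46.

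Among genes of the same pathway outside the 44, the mitotic list again had a lower median than the replication and regulator lists. Over all protein-coding genes, 53.8% were detected (1 TPM or more in each library). Of 40 other replication factors, 30 were detected, and their list had a median of 3.38 in replicate 1 and 3.29 in replicate 2. Of 40 other mitotic factors 18 were detected, with medians of 0.86 and 1.16. Of 32 other G1 and transcriptional regulators 24 were detected, with medians of 2.65 and 2.34. Leading genes were Slbp, the histone mRNA binding protein, at 21.6 and 19.1, Dnmt1, the maintenance DNA methyltransferase, at 17.7 and 16.7, and Orc3 at 16.2 and 10.5 for replication. They were Bub3 at 19.8 and 19.2, Pttg1 (securin) at 11.1 and 9.53 and Ncapd2, a condensin subunit, at 6.43 and 6.17 for mitosis. Among the regulators Fzr1, which keeps the anaphase-promoting complex active in G1 and in neurons, stood at 19.7 and 18.02, Mdm2, the p53 ligase, at 14.9 and 11.9 and Tfdp1, the E2F partner, at 12.3 and 9.39.

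At the low end lay Orc1 at 0.03 TPM in replicate 1 and 0.05 in replicate 2, Gins3 at 0.59 and 0.26, and Mcm10 at 0.20 and 0.91. Among mitotic factors Ndc80 stood at 0.16 and 0.07, Kif20b at 0.13 and 0.25 and Cenpe at 0.26 and 0.17, and among regulators E2f8 at 0.22 and 0.32, E2f2 at 0.23 and 0.37 and Chek2 at 0.24 and 0.37. The low level of Cdc6 was thus shared by Orc1, a subunit of the origin complex that recruits it, but not by the other subunits. Orc2 to Orc6 ranged from 4.16 TPM (Orc6 in replicate 2) to 18.4 TPM (Orc4 in replicate 1). Cdkn1c, p57, the third Cip/Kip inhibitor, stood at 24.5 and 16.6, above Cdkn2d in replicate 1 and below it in replicate 2. Cdkn2b stood at 0.26 and 0.77, and Cdkn2a was listed at 0 counts in both libraries, which allows up to 3 counts in each. Of these 3 other inhibitors 1 was detected, against 53.8% of protein-coding genes. Their median, 0.26 TPM in replicate 1 and 0.77 in replicate 2, lay below that of the other mitotic factors.

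Kinases and cyclins of the same families that work in cells outside the cycle were higher than most of the 44. Of 11 such genes 10 were detected, against 53.8% of protein-coding genes, with a median of 17.5 TPM in replicate 1 and 14.2 in replicate 2. They were led by Cdk5r1, the neuronal activator of Cdk5, at 80.2 and 77.0, Ccni at 61.5 and 47.6 and Cdk16 at 46.2 and 40.0. Their median log2 ratio between the libraries was -0.06.

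Replication-dependent histone genes, most of whose mRNAs lack a poly(A) tail and are made in S phase, were not part of the 44. They were taken by symbol alone, so the list may hold genes that are also expressed outside S phase. Of 64 such genes 56 were detected, against 53.8% of protein-coding genes. The list's median TPM was 34.6 in replicate 1 and 53.9 in replicate 2. The highest were Hist1h4d at 1455 and 1588, Hist1h4c at 784 and 536 and Hist1h4n at 296 and 362, and Hist1h2ba, Hist1h2aa and Hist1h2ao were listed at 0 in both libraries. Of the 59 with 20 or more counts in sum, 55 were higher in replicate 2 on scaled counts, against 51.0% of all genes. Past 2-fold upward were 22 of the 59, against 7.72% of all genes. The median log2 ratio was 0.93, while the log2 ratio of the summed counts was 0.61. Hist2h3c1 passed 2-fold the other way, with 69.1 counts in replicate 1 and 0 in replicate 2. Histone copies are near-identical, so reads may be divided unevenly among them, and the genes of this list are not independent observations. Many of their mRNAs are short and have small effective lengths.

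Other mitotic factors had a median log2 ratio of 0.27, with 27 of 40 higher in replicate 2 (51.0% of all genes) and 5 of 40 past 2-fold upward, against 7.72% of all genes (Cenpm, Ube2c, Cdca8, Kif20b and Kif2c), while Cdkn3, a CDK phosphatase, passed it downward (-1.49). Ube2c, the ubiquitin-conjugating enzyme of the anaphase-promoting complex, had 164 and 691 counts (1.47). Other replication factors had a median of 0.18, with Mcm10 (2.66, on 34 and 330 counts) and the licensing inhibitor Gmnn (2.06, on 26 and 167 counts) past 2-fold, 2 of 40 against the same 7.72%, and other regulators had a median of 0.12, with Cdc25c lower (-1.14). The ratio of the 16 mitotic members was thus larger than that of the wider mitotic list.

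Markers of some cell types moved the same way. Their part in the higher mitotic and histone values was not tested. Red cell markers had a median log2 ratio of 0.88, with 7 of 7 higher in replicate 2 and summed TPM of 589 and 727, led by the globins Hba-a2 at 284.5 and 380 TPM, Hba-a1 at 119.8 and 170 and Hbb-bs at 152 and 129. Alas2, of heme synthesis, had 230 and 711 counts, and Slc4a1, the anion exchanger of the red cell membrane, was low, at 0.07 and 0.20 TPM. Of the 7 markers 5 reached 1 TPM in both libraries.

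Choroid plexus markers, of which 2 of 5 were detected, had a median log2 ratio of 1.60, with 5 of 5 higher and summed TPM of 16.9 and 168. Their leading genes were Ttr, transthyretin, at 14.4 and 163 TPM, Folr1 at 1.05 and 2.19 and Aqp1 at 0.46 and 2.42, with Clic6 at 0.45 and 0.63 and Kl at 0.46 and 0.43. Markers of cerebellar granule cell precursors, with 3 of 5 detected, had a median of 0.64, with 5 of 5 higher and summed TPM of 43.0 and 58.7. The 3 detected were Zic1 at 19.6 and 26.8 TPM, Zic2 at 14.8 and 19.4 and Barhl1 at 7.88 and 9.02. Atoh1, which marks the dividing precursors, lay below 1 TPM in both libraries, at 0.07 and 0.50 TPM on 10 and 127 counts. Its log2 ratio was 3.00, and that of Neurod1, on 141 and 1056 counts, was 2.30. Whether such precursors were present was not tested. Choroid plexus and cerebellum lie next to the midbrain, and whether the isolates differed in neighbouring tissue was not tested.

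Oligodendrocyte precursor markers had a median log2 ratio of 0.38 with 6 of 6 higher and summed TPM of 64.5 and 72.2, led by Olig1 at 32.6 and 36.0, Pdgfra at 10.7 and 9.75 and Olig2 at 7.94 and 11.2. Astrocyte markers had a median of 0.34 with 6 of 6 higher and summed TPM of 186 and 190, led by Glul at 66.8 and 60.6, Aldoc at 56.5 and 65.9 and Aldh1l1 at 23.5 and 22.4. Both lists lay above the median of all genes and below that of the mitotic members.

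The other lists differed less. Progenitor markers had a median of 0.14 (6 of 8 higher, summed TPM 407 and 323), led by Fabp7 at 218 and 131, Vim at 92.3 and 102 and Slc1a3 at 35.3 and 35.7, and 1 of them, Pax6, passed 2-fold with 381 and 1486 counts. Neuronal markers had a median of 0.12 (4 of 7 higher, summed TPM 1144 and 995), with Nefl at 78.7 and 84.1 and Stmn2 at 92.1 and 61.5 after Tubb3. Microglial markers had a median of 0.10 (6 of 7 higher, summed TPM 53.4 and 47.9), led by the complement genes C1qc at 13.4 and 14.6, C1qb at 15.2 and 11 and C1qa at 10.4 and 8.94.

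Markers of vessels and meninges went slightly the other way. Mural cell markers had a median of -0.08 (1 of 5 higher, summed TPM 46.1 and 37.9), led by Vtn at 24.6 and 22.0, Rgs5 at 12.2 and 8.77 and Pdgfrb at 4.82 and 3.90. Meningeal fibroblast markers had a median of -0.12 (2 of 6 higher, summed TPM 89.2 and 69.97), led by Col3a1 at 27.4 and 22.6, Col1a2 at 27.9 and 17.5 and Slc6a13 at 11.3 and 10.9. Endothelial markers had a median of -0.24 (2 of 6 higher, summed TPM 64.0 and 44.2), led by Cldn5 at 38.6 and 25.6, Esam at 8.37 and 5.37 and Kdr at 5.19 and 3.44. All markers of these 3 lists reached 1 TPM in both libraries, and no marker of any list was at 0 counts in both.

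**Figure D4:**
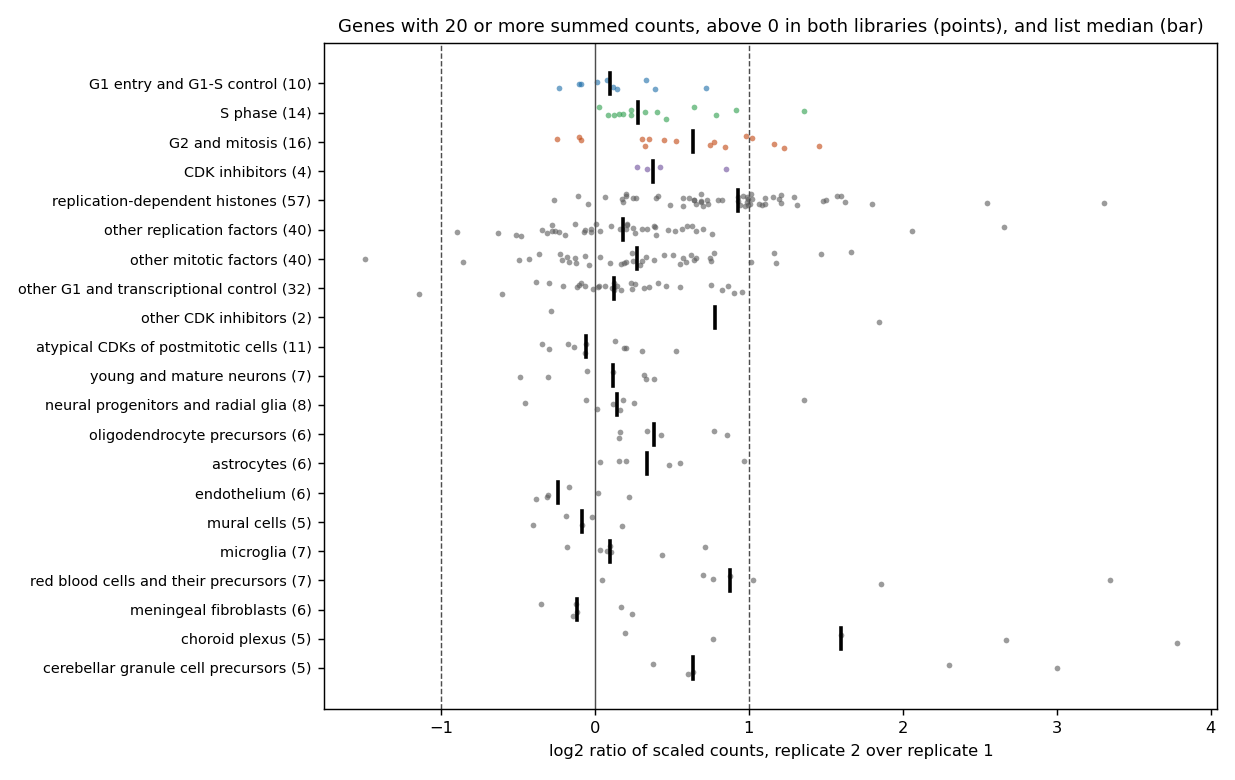
Log2 ratio of TMM-scaled counts, replicate 2 over replicate 1, for each gene with at least 20 summed counts and above 0 in both libraries (points), by list, with the list median as a bar, dashed lines at 2-fold and the number of genes in brackets. The medians of replication-dependent histones, red cell, choroid plexus and granule cell precursor markers, other CDK inhibitors and the mitotic genes lie furthest right of 0. Those of the S phase genes, inhibitors, oligodendrocyte precursors and astrocytes also lie to the right. The medians of the endothelial and meningeal markers lie slightly to the left.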

How the data were processed

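Total RNA of newborn mouse midbrain was measured in 2 libraries of 1 group. Per the deposited notes, the authors quantified genes and transcripts on mm10 with GENCODE M4 from transcriptome alignments. Which aligner and quantifier made them, and in which version, is not given in the sources used here. Estimated counts (expected counts), as deposited, divide a shared read among genes, and the deposited TPM and FPKM values are per effective length. The authors' deposited percent of a gene on each transcript, its lengths and its credibility bounds were read, and the bounds support no statement.

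Symbols, coordinates and transcript classes came from GENCODE M21 (GRCm38, the same assembly), which matched 42462 of 43346 identifiers and all 194 transcripts of the 44 genes. Counts were whole within 0.005 for 42 of the 44 genes in both libraries. Pcna and Ccnb1, which have processed copies, were the exceptions. The strand setting of the counting is not given, and genes that overlap a member were listed. Spike-in and numbered rows, 1.21% and 1.06% of counts, stayed out of scaling.

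A gene was detected at 1 TPM or more in both libraries. Pairs used TPM + 0.1. Ratios between libraries used counts + 0.5 after TMM scaling (edgeR 4.0.16 on rounded counts, with DESeq2 1.42.0 size factors as an alternative), with exact binomial (Clopper-Pearson) 95% intervals that cover counting error only, since reads are not independent molecules. The ratio step was tested on simulated data. Past 2-fold is a description, not a test. The members and lists were chosen with earlier results of these data known, and support nothing on their own. All members are given, every member past 2-fold is named, and of each pathway and marker list the 3 genes with the highest mean TPM and up to 3 of the lowest below 1 TPM in both libraries. A gene that this rule names is not reported here. Other genes named (Sox2, Alas2, Neurod1, Pax6, Orc2, Orc4, Orc5, Orc6 and the pathway genes past 2-fold) and the promoter motifs were chosen after values were seen.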

Additional observations from a re-analysis of the deposited data

How the results depend on the processing

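No paired analysis was possible because the design has a single group. Of 44 genes, 20 reached 2 TPM in both libraries. Between 37 and 39 reached 1 TPM with a replicate left out, and 33 did so on protein-coding transcripts alone. As FPKM the medians were 4.29 for the G1 genes, 4.35 for S phase, 2.89 for mitosis and 18.4 for the inhibitors, and with annotated in place of effective length 6.85, 6.77, 4.52 and 28.2. Both settings change the unit's scale and kept the inhibitors highest and mitosis lowest. On protein-coding transcripts the mitotic median was 1.42. Leaving out a replicate gave an S phase median of 2.44 to 2.81. The role differences kept their direction under the settings tried. That of the inhibitors stayed past 2-fold and that of S phase under it, while the mean difference of G1, 0.61, reached 1.01 with means of log2(TPM + 0.1) in place of medians. Between 6 and 11 pairs passed 2-fold, against 9.

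Past 1.5-fold between the libraries, 14 members differed, 8 of them mitotic and higher in replicate 2, and past 3-fold 0 and 0. On unscaled deposited TPM, 2 members passed 2-fold (Gins2 higher and Bub1 lower in replicate 2) and 0 mitotic genes passed it upward. With total counts 4 passed, 3 of them mitotic, and on protein-coding transcripts 5, all mitotic. Spike-in, DESeq2 and TMM scaling gave the same counts, 5 and 4. Leaving out a library was not run for the ratio, which needs both. At a threshold of 0.5 TPM 102 pathway list genes were detected and at 2 TPM 64, against 83; these settings, and single replicates (85 to 91), were chosen after seeing the data. Depth limits Cdc6, whose interval spans 0.46 to 2.45.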
